A study of Homo sapiens with 6 samples.

Results

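Fatty acid synthesis and desaturation was followed through 10 genes, FASN, ACACA, ACLY, ACSS2, SCD, SCD5, FADS1, FADS2, ELOVL5 and ELOVL6, which were taken by symbol from a count table of 21776 genes. All 10 genes were present once, and all 10 passed the filter on low counts that left 14255 genes for testing, with at least 252 reads in every library. The RNA came from SCC25, an established cell line of oral squamous cell carcinoma labelled as wild type and grown in DMEM/F12 with fetal bovine serum. Hypoxia libraries (n = 3) were from cells kept for 12 h in a gas mixture of 1% O2 and 5% CO2, and normoxia libraries (n = 3) from cells kept for 12 h in humidified air with 5% CO2. The count table heads its columns with HNSCC, and the study's text names SCC9 for its hypoxia transcriptome. Nothing in the labels says whether the 3 libraries of a condition came from separate cultures, so the p-values below measure the spread between these libraries, which may be technical. Reads assigned to genes numbered 30186813, 36076088 and 32272716 for the hypoxia libraries, in the order of their replicate numbers, and 37278703, 29637189 and 29981208 for the normoxia libraries. All values below follow this order. The data are 1 cell line at 1 time point in serum, and no lipid or protein was measured in these libraries.

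Fatty acids are built in the cytosol from acetyl-CoA, which ACLY releases from citrate and ACSS2 makes from acetate. ACACA carboxylates acetyl-CoA to malonyl-CoA, and FASN joins these units into palmitate. ELOVL6 lengthens palmitate to stearate, SCD and its paralog SCD5 place the first double bond into saturated chains, and FADS1, FADS2 and ELOVL5 desaturate and lengthen polyunsaturated chains taken from the diet or medium. The desaturases consume molecular oxygen in each reaction. The transcription factor SREBP, which INSIG proteins hold in the endoplasmic reticulum together with SCAP, is the best known activator of the pathway.

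Among the normoxia libraries, replicate 3 stood somewhat apart and nearer to hypoxia. Its log2 CPM (counts scaled to the TMM-normalized library size) correlated with those of the hypoxia libraries at 0.938, 0.929 and 0.933, against 0.911 to 0.924 for the other normoxia libraries, and at 0.991 and 0.990 with normoxia replicates 1 and 2. Within conditions, its chi-square per gene was 10.1 and 10.8 against the other normoxia libraries, while the other pairs lay between 5.11 and 8.85. Of the 15 hypoxia response genes read below, it was the highest normoxia library for all but ADM and ANGPTL4. ADM had 16.8 CPM in it against 17.9 and 17.9, and ANGPTL4 had 4.97 CPM against 4.81 and 5.66. The genes highest in it included CA9, NDRG1 (409 CPM against 163 and 140), EGLN3 and VEGFA. Of the synthesis genes, FASN, ACACA, ACSS2, SCD, SCD5 and FADS2 were also highest in it, while ACLY, FADS1, ELOVL5 and ELOVL6 were not. In FADS2, which was lower under hypoxia, this library lay further from hypoxia than the other normoxia libraries. Without it, the log2-fold changes were 0.78 for FASN, 0.52 for ACACA, 0.30 for ACLY, 2.22 for ACSS2, 2.13 for SCD, 1.07 for SCD5 and 0.23 for FADS1, all still called higher, and FADS2 was no longer called. Its part in the other results was not tested beyond leaving it out.

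Under hypoxia, 7 of the 10 genes were higher than in normoxia, 1 was lower and 2 did not pass the test (edgeR's quasi-likelihood test with Benjamini-Hochberg adjustment over all tested genes, adjusted p under 0.05). The response of this line was broad, and 39.2% of all tested genes were higher and 38.5% lower by the same rule. A log2-fold change over 1 in addition was met by 3 of the 10 genes, SCD, ACSS2 and SCD5, against 19.9% of all tested genes. SCD5 lay at this limit (1.00, 95% interval 0.79 to 1.22) and was under it without hypoxia replicate 3 (0.97), without normoxia replicate 1 (0.99) or 2 (0.92), with no filter on low counts (0.96) and by limma on log2(FPKM + 1) (0.81), which leaves 2 genes, SCD and ACSS2. In 7 genes every hypoxia library lay above every normoxia library, which was so for 40.6% of all tested genes, and in 1 gene, FADS2, every hypoxia library lay below, as in 39.9%. Their log2-fold changes had a median of 0.42, beside 0.02 over all tested genes. Values are given as CPM and show the share of a transcript in the RNA, so that less RNA per cell and fewer transcripts of a gene cannot be told apart.

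**Figure D1:**
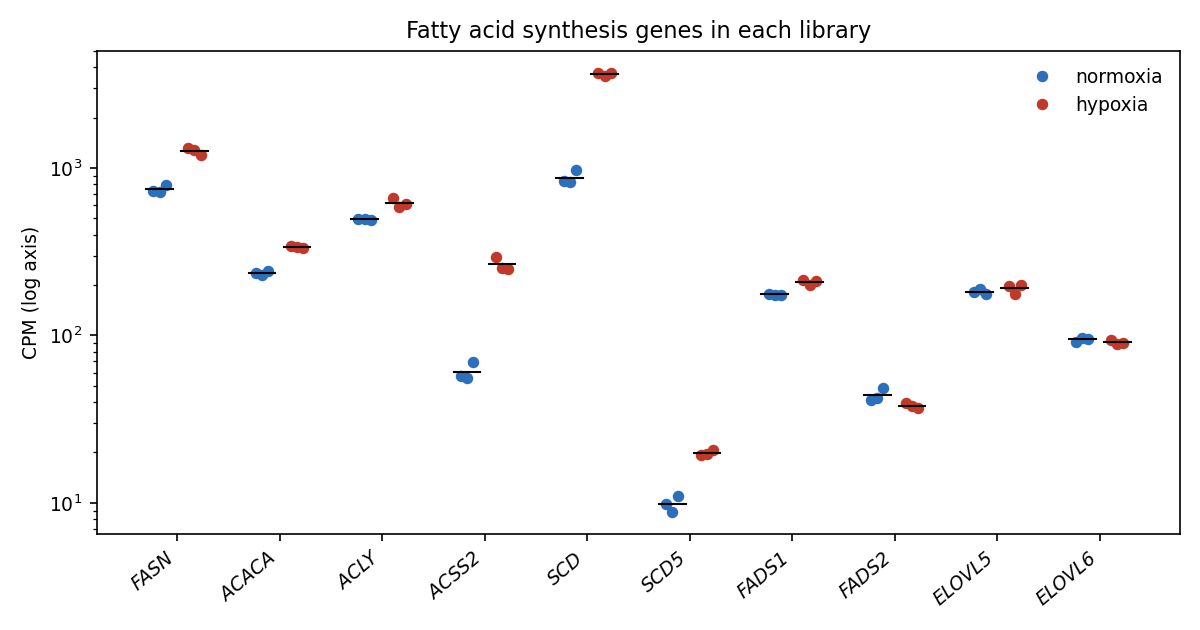
CPM (log axis) of the 10 genes in each library, with normoxia in blue and hypoxia in red, 3 points per condition and the mean as a black line. The conditions stand furthest apart in ACSS2 and SCD and overlap in ELOVL5 and ELOVL6.

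SCD, the main stearoyl-CoA desaturase, was the most abundant of the 10 genes and 1 of the 2 with the largest increase. It had 3714, 3568 and 3693 CPM under hypoxia and 836, 821 and 980 CPM under normoxia. The lowest hypoxia library was thus more than 3 times above the highest normoxia library in CPM, and the spread within each condition was small beside this gap. The means were 3659 ± 79.0 CPM and 879 ± 87.6 CPM (SD, n = 3), a 4.16-fold difference with a log2-fold change of 2.06 (SE 0.065, edgeR quasi-likelihood adjusted p = 4.21e-14).

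ACSS2, which activates acetate to acetyl-CoA, changed as much from a level more than 10 times lower in CPM. It had 295, 252 and 250 CPM under hypoxia and 56.9, 55.9 and 69.9 CPM under normoxia. All 3 hypoxia libraries were far above all 3 normoxia libraries, with the highest value in hypoxia replicate 1. The log2-fold change was 2.13 (SE 0.083, edgeR quasi-likelihood adjusted p = 4.34e-13), from 60.9 ± 7.78 to 266 ± 25.2 CPM (SD, n = 3). Of all tested genes, 92.3% had a log2-fold change at or below that of ACSS2 and 91.8% one at or below that of SCD.

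The sequences upstream of these genes are shown because SCD and ACSS2 moved together and furthest. RefSeq promoter windows of GRCh38.p14, which run from 250 bases before a transcript start to 50 after it, were found for 9 of the 10 genes, in 14 windows because some genes have several starts, and none was found for FASN. The windows were searched on both strands for TCACNCCAC (a sterol response element), CACGTG (an E-box), ACGTG and GCGTG (cores of the hypoxia response element, the first of which lies within the E-box) and CCAAT (the NF-Y box). SCD has 1 window, on the plus strand of chromosome 10, chr10:100346983-100347282, with 2 NF-Y boxes and 1 match to GCGTG on the minus strand. ACSS2 has 2 windows on the plus strand of chromosome 20, chr20:34874739-34875038 with 1 NF-Y box on the minus strand and chr20:34876362-34876661 with 1 ACGTG after the start. The sequences run 5′ to 3′ on the strand of the gene, and capitals mark the matches.

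SCD: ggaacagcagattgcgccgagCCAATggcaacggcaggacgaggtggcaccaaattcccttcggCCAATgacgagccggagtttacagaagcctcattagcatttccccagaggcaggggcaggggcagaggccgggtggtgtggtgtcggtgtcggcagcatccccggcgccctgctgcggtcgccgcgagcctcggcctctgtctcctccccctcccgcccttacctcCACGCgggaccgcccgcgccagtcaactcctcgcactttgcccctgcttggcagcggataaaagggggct

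ACSS2, upstream start: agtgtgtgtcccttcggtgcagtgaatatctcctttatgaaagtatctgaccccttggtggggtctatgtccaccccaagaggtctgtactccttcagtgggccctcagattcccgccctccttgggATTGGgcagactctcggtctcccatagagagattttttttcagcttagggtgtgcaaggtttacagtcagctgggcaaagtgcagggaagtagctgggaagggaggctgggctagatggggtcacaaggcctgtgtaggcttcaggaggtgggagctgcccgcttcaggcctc

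ACSS2, downstream start: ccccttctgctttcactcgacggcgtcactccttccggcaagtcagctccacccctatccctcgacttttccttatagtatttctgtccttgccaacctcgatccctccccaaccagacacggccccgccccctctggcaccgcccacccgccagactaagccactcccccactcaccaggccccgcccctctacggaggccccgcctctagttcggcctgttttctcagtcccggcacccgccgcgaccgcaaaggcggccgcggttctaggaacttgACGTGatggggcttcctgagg

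Over the 14 windows, the NF-Y box was found in 9 windows of 7 genes, against 34.6% of all 35116 windows in the table and 34.7% of the 16358 windows of tested genes. GCGTG was found in 8 windows of 5 genes (36.5% of all windows, 47.9% of those of tested genes) and ACGTG in 4 windows of 4 genes (21.4% and 25.2%). The 2 windows of ACLY overlap, so that its matches to GCGTG and the NF-Y box are the same bases counted in both, and the 2 windows of FADS2 overlap as well. The E-box was found in 1 window, that of ELOVL5 (7.26% of all windows, 9.11% of those of tested genes), and the sterol response element as spelled here in 0 (1.13% and 1.01%). ACGTG matched in ELOVL5 and ELOVL6, which did not pass the test, as well as in ACSS2 and ACACA. The matches are letters in a window and not shown to be bound.

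Of the other genes of palmitate synthesis, FASN, the multidomain synthase, had 1322, 1282 and 1194 CPM under hypoxia and 734, 721 and 788 CPM under normoxia. The conditions did not overlap, and the log2-fold change was 0.76 (SE 0.055, edgeR quasi-likelihood adjusted p = 9.48e-10). ACACA, the cytosolic acetyl-CoA carboxylase, had 343, 339 and 334 CPM under hypoxia against 237, 228 and 244 CPM under normoxia. The SD of ACACA was 4.46 CPM between hypoxia libraries and 7.99 CPM between normoxia libraries, and its log2-fold change was 0.52 (SE 0.050, edgeR quasi-likelihood adjusted p = 4.10e-08). ACLY, the citrate lyase, had 663, 585 and 608 CPM under hypoxia and 493, 497 and 493 CPM under normoxia. The hypoxia libraries of ACLY were more scattered than the normoxia libraries but all above them, with a log2-fold change of 0.32 (SE 0.054, edgeR quasi-likelihood adjusted p = 3.04e-05). The transcripts of ACLY, ACACA and FASN thus all increased, each by less than 2-fold in mean CPM (1.25-fold for ACLY, 1.43-fold for ACACA and 1.69-fold for FASN).

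SCD5, the paralog of SCD, was the least abundant gene of the 10. It had 19.2, 19.6 and 20.7 CPM in the hypoxia libraries and 9.84, 8.81 and 11.0 CPM in the normoxia libraries. Each hypoxia library was well above each normoxia library, and the log2-fold change was 1.00 (SE 0.10, edgeR quasi-likelihood adjusted p = 8.77e-08).

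FADS1 and FADS2, neighbouring genes on chromosome 11 that encode the desaturases of polyunsaturated chains, moved in opposite directions. FADS1 had 216, 200 and 212 CPM under hypoxia and 177, 175 and 175 CPM under normoxia, a log2-fold change of 0.25 (SE 0.051, edgeR quasi-likelihood adjusted p = 0.000236). FADS2 had 39.2, 37.8 and 37.0 CPM under hypoxia and 41.0, 42.2 and 48.4 CPM under normoxia. The gap between the conditions in FADS2 was narrow, and normoxia replicate 3 stood above the others. Its log2-fold change was -0.21 (SE 0.071, edgeR quasi-likelihood adjusted p = 0.0142). This call depended on individual libraries and on the test. It was lost without hypoxia replicate 3 (log2-fold change -0.19, edgeR quasi-likelihood adjusted p = 0.0512), without normoxia replicate 3 (-0.15, adjusted p = 0.0545), with a floor of 10 counts per library (-0.13, adjusted p = 0.109) and by limma on log2(FPKM + 1) (-0.14, adjusted p = 0.081). Exons of FADS1 and FADS2 share 490 bases on opposite strands in GENCODE v29, and the sources do not say whether the counting used the strand, so reads from that stretch cannot be told apart. FADS2 exons also share 49 bases with FEN1 on the same strand, where the strand would not separate the reads.

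The elongases showed little difference. ELOVL5 had 196, 178 and 199 CPM under hypoxia and 181, 190 and 176 CPM under normoxia, with overlapping ranges and a log2-fold change of 0.07 (95% interval -0.05 to 0.19, edgeR quasi-likelihood adjusted p = 0.271). ELOVL6 had 93.9, 89.2 and 90.02 CPM under hypoxia and 91.8, 97.2 and 95.1 CPM under normoxia, with a log2-fold change of -0.06 (95% interval -0.17 to 0.06, edgeR quasi-likelihood adjusted p = 0.339). The test does not show that the elongases were equal in both conditions, but a change as large as that of FASN lies outside both intervals. With a floor of 10 counts per library, a filter under which genes kept by both fits shifted upward by 0.08 in the median log2-fold change, ELOVL5 passed the test (0.15, edgeR quasi-likelihood adjusted p = 0.0225) and ELOVL6 was at 0.02 (adjusted p = 0.716).

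**Figure D2:**
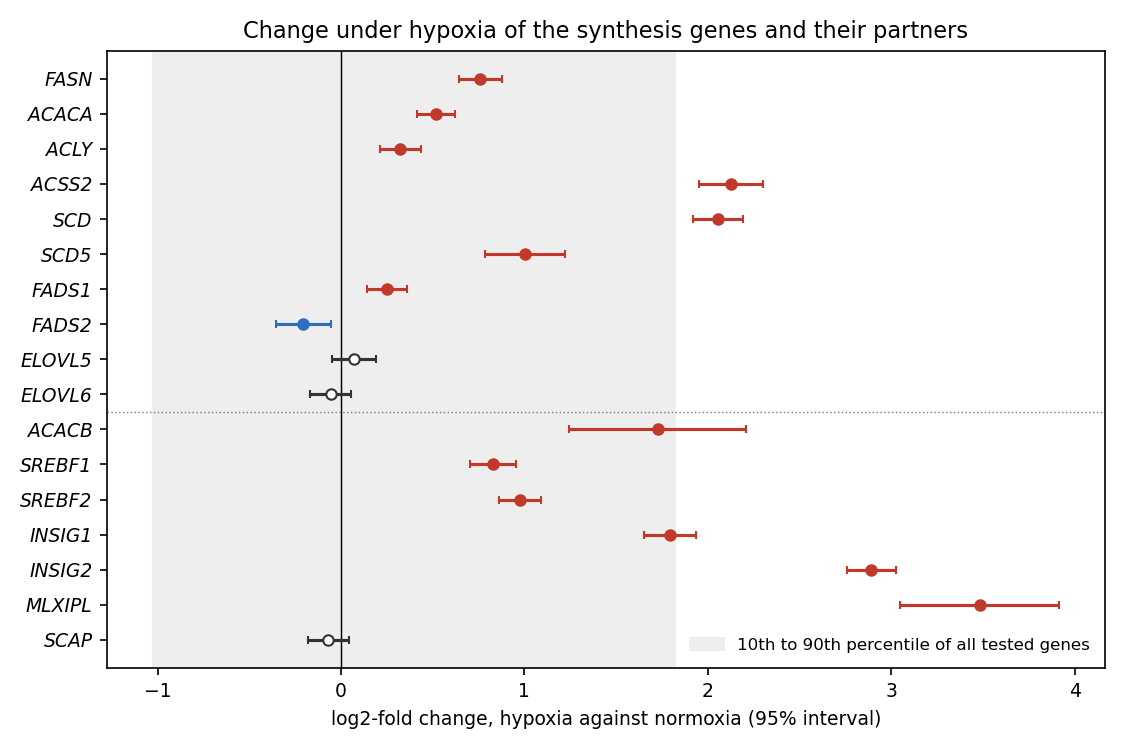
Log2-fold change of hypoxia against normoxia with its 95% interval for the 10 genes (above the dotted line) and for 7 partner genes (below it); red is higher and blue lower at an adjusted p under 0.05, open symbols did not pass. The grey band spans the 10th to 90th percentile of all tested genes, from -1.03 to 1.82, and SCD, ACSS2, INSIG2 and MLXIPL lie to its right.

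Levels of different genes were compared as FPKM, the deposited values per kilobase of gene. For all 10 genes the FPKM equalled the counts divided by the library total and by 1 length per gene, to within 0.01%. That length was itself derived from the counts and the FPKM, so the gene lengths were not checked independently. In normoxia the order by mean FPKM was SCD (165 ± 17.3 FPKM; SD, n = 3), ACLY (107 ± 1.34), FASN (86.2 ± 4.78), ELOVL5 (48.2 ± 1.25), FADS1 (38.1 ± 0.79), ACACA (20.4 ± 0.95), ACSS2 (18.5 ± 2.46), ELOVL6 (13.6 ± 0.19), FADS2 (12.0 ± 1.12) and SCD5 (2.30 ± 0.28). The ranges of neighbours in this order did not overlap except for ACACA and ACSS2. Under hypoxia ACSS2 stood in the fourth place with 83.5 ± 7.70 FPKM, above ELOVL5, FADS1 and ACACA, and FASN at 151 ± 8.80 FPKM overlapped with ACLY at 138 ± 8.02 FPKM as the only neighbours not separated. SCD alone made up 56.2%, 57.3% and 58.0% of the summed FPKM of the 10 genes under hypoxia and 31.4%, 31.0% and 34.2% under normoxia. The sum of all 10 was 1274, 1224 and 1220 FPKM under hypoxia and 506, 488 and 539 FPKM under normoxia. Without SCD it was 558, 522 and 512 FPKM under hypoxia and 347, 337 and 355 FPKM under normoxia, so that the sum of the other genes also differed without overlap.

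To see whether genes with the same or a neighbouring task changed unequally, the ratio of their FPKM was taken within each library for 5 pairs. Exact permutation tests of 3 libraries against 3 cannot go below p = 0.1, and all 5 pairs gave this smallest p (two-sided, also 0.1 after adjustment over the 5 pairs), so none of the differences in ratio can pass 0.05. ACSS2 stood at 0.627, 0.607 and 0.580 of ACLY under hypoxia and at 0.163, 0.158 and 0.200 under normoxia. This is a 3.50-fold difference in the ratio of the transcript of the acetate-using enzyme to that of the citrate-using enzyme. The log2 difference was 1.81 (SE 0.11, n = 3 libraries per condition). The ratio of SCD5 to SCD was 0.0064, 0.0068 and 0.0069 under hypoxia and 0.0146, 0.0133 and 0.0139 under normoxia, and the log2 difference was -1.05 (SE 0.052). SCD5 was thus a small share beside SCD in either condition, and smaller under hypoxia in every library.

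For FADS1 to FADS2 the FPKM ratios were 4.34, 4.19 and 4.53 under hypoxia against 3.41, 3.28 and 2.86 under normoxia, a log2 difference of 0.45 (SE 0.084). ELOVL6 to ELOVL5 gave the smallest difference, with ratios of 0.260, 0.273 and 0.246 under hypoxia and 0.276, 0.279 and 0.293 under normoxia and a log2 difference of -0.12 (SE 0.051). ACACB, the carboxylase isoform of the mitochondrial surface whose malonyl-CoA restrains fatty acid oxidation, was compared with ACACA. It was rare, with 109, 167 and 127 counts under hypoxia and 36, 38 and 40 under normoxia, and the ratio to ACACA was 0.0114, 0.0146 and 0.0128 under hypoxia and 0.0045, 0.0064 and 0.0061 under normoxia. The log2 difference of 1.21 (SE 0.19) became 0.63 when 0.1 FPKM was added to both genes, since ACACB lies near that level. In the gene-wise test ACACB had a log2-fold change of 1.73 (SE 0.23, edgeR quasi-likelihood adjusted p = 2.36e-06).

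**Figure D3:**
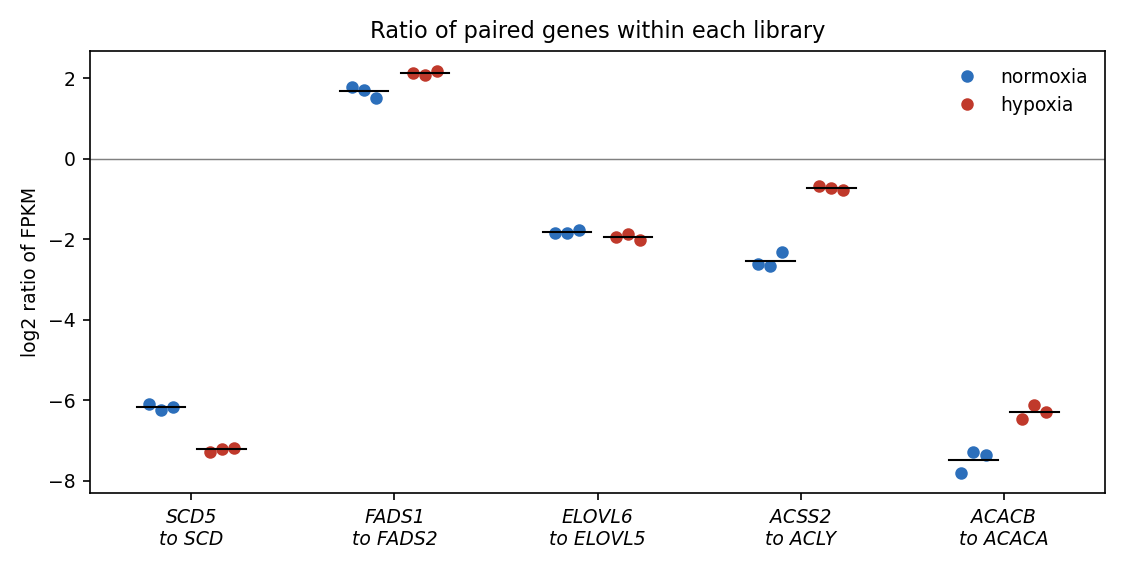
Log2 ratio of the FPKM of 2 genes within each library for 5 pairs, with normoxia in blue, hypoxia in red, 3 points per condition and the mean as a black line; the grey line marks equal FPKM. The ratio of ACSS2 to ACLY differs most between the conditions (log2 difference 1.81) and that of ELOVL6 to ELOVL5 least (-0.12).

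The regulators of the pathway were read from a list of 13 genes, all tested, of which 7 were higher, 2 lower (MBTPS2, which encodes an SREBP protease, and MLX) and 4 did not pass. As shares these are 53.8% higher and 15.4% lower, beside 39.2% and 38.5% of all tested genes. Their median log2-fold change was 0.21. SREBF1, which encodes the SREBP form most tied to fatty acid synthesis, had 110, 112 and 108 CPM under hypoxia and 61.7, 57.7 and 66.5 CPM under normoxia (log2-fold change 0.83, SE 0.059, edgeR quasi-likelihood adjusted p = 7.68e-10). SREBF1 exons share 556 bases with RAI1 on the opposite strand in GENCODE v29. SREBF2, the form most tied to sterol synthesis, had 541, 543 and 534 CPM under hypoxia and 267, 262 and 294 CPM under normoxia (log2-fold change 0.98, SE 0.054, edgeR quasi-likelihood adjusted p = 2.90e-11). In both SREBF genes the 3 libraries of a condition lay close together and apart from the other condition.

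INSIG1 and INSIG2, whose products retain SREBP in the endoplasmic reticulum, increased more than the SREBF genes. INSIG2 had 113, 118 and 122 CPM under hypoxia and 15.9, 15.4 and 16.2 CPM under normoxia, a 7.42-fold difference in mean CPM (log2-fold change 2.89, SE 0.063, edgeR quasi-likelihood adjusted p = 1.35e-15). INSIG1 had 259, 228 and 240 CPM under hypoxia and 69.5, 64.0 and 76.0 CPM under normoxia (log2-fold change 1.80, SE 0.068, edgeR quasi-likelihood adjusted p = 2.95e-13). The escort protein gene SCAP had 92.2, 87.8 and 87.0 CPM under hypoxia and 91.5, 96.1 and 92.4 CPM under normoxia. The ranges of SCAP overlapped, and its log2-fold change of -0.07 did not pass (95% interval -0.18 to 0.04, edgeR quasi-likelihood adjusted p = 0.245). MLXIPL, which encodes the carbohydrate-responsive factor ChREBP, rose from 30, 30 and 45 counts under normoxia to 432, 486 and 328 under hypoxia (log2-fold change 3.48, SE 0.21, edgeR quasi-likelihood adjusted p = 6.30e-11), while its partner MLX was lower at -0.39 (adjusted p = 9.35e-06).

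Among the regulators, SREBF2 had the only match to the sterol response element in the windows of the 7 partner genes. Its window lies on the plus strand of chromosome 22, chr22:41832855-41833154, and is shown 5′ to 3′ with the matches in capitals, where the element runs into a GCGTG match on the minus strand and is followed by an NF-Y box on the minus strand.

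SREBF2: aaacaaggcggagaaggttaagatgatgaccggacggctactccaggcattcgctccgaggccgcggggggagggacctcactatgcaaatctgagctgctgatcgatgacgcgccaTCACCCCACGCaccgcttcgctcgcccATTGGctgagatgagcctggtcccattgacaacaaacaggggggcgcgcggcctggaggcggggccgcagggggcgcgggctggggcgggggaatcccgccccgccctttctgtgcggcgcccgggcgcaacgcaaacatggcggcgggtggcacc

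Lists of neighbouring genes were counted against the same background of 39.2% higher and 38.5% lower among all tested genes, in which calls in both directions are common. Of 10 genes for carbon and NADPH supply, 3 were higher, 6 lower and 1 did not pass, with a median log2-fold change of -0.38. SLC25A1, the mitochondrial citrate carrier, rose from 84.3 to 164 CPM in the mean (log2-fold change 0.96, SE 0.056, edgeR quasi-likelihood adjusted p = 5.88e-11), and IDH1, the cytosolic isocitrate dehydrogenase, from 80.03 to 131 CPM (0.71, adjusted p = 1.11e-08). IDH2 was the other gene that was higher (0.17), a call lost without hypoxia replicate 3 or normoxia replicate 2. NADK, the NAD kinase, was lower at -0.81 (edgeR quasi-likelihood adjusted p = 1.39e-09) and ME1, the cytosolic malic enzyme, at -0.65 (adjusted p = 6.90e-08).

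Of 13 partners and controllers of the carboxylases and synthase, 10 were tested, 3 being higher and 5 lower. AASDHPPT, which loads the prosthetic group onto FASN, was lower at -1.03 (edgeR quasi-likelihood adjusted p = 3.58e-10), and MID1IP1, an activator of the carboxylases, at -0.72 (adjusted p = 8.40e-07). The AMPK subunit genes PRKAB1, PRKAG2 and PRKAA1 were also lower, and PRKAB2, MLYCD (malonyl-CoA decarboxylase) and ACACB were the 3 that were higher. PRKAG3, a rare AMPK subunit gene outside this list, had 32, 43 and 44 counts under hypoxia and 0, 0 and 1 under normoxia. It passed the filter on low counts only through the hypoxia libraries, so a decrease could not have been called. Of 8 genes of mitochondrial fatty acid synthesis, a separate route that serves lipoic acid production, 2 were higher and 2 lower. HSD17B8 was higher at 1.07 (edgeR quasi-likelihood adjusted p = 2.47e-06) and ACSF3 at 0.33, while MCAT, which loads malonyl groups, was lower at -0.87 (adjusted p = 7.33e-07) and the acyl carrier protein gene NDUFAB1 at -0.80.

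The other genes of chain elongation numbered 11, of which 10 were tested, with 5 higher and 4 lower. TECR, the last enzyme of the elongation cycle, was higher at 0.44 (edgeR quasi-likelihood adjusted p = 1.00e-06), and the dehydratases HACD2 (-0.72, adjusted p = 6.99e-08) and HACD3 (-0.64, adjusted p = 8.52e-09) were lower. The elongases ELOVL4 and ELOVL3, the latter rare with a mean log2 CPM of 0.10, were higher, as were HSD17B12 and HACD4, and ELOVL1 and ELOVL7 were lower. The call of ELOVL4 was lost without hypoxia replicate 3 and also without replicate 1 or 3 of normoxia. Of 10 other desaturases and electron donors, 8 were tested, with 2 higher, namely FADS3 (0.85, edgeR quasi-likelihood adjusted p = 1.48e-09) and the sphingolipid desaturase DEGS1 (0.67, adjusted p = 1.05e-08), and 5 lower. CYB5R2, a reductase of cytochrome b5, was lower at -1.17 (edgeR quasi-likelihood adjusted p = 2.93e-05). CYB5R4, CYB5A, CYB5B and CYB5R3, also of this list, were lower by less (-0.34 to -0.18). CYB5R1 did not pass (0.015, edgeR quasi-likelihood adjusted p = 0.887). The acyl-CoA synthetases, which activate free fatty acids, were counted without the SLC27 genes. Those are in the list of uptake and binding below and moved in both directions. Of 9 synthetases listed, all 5 tested were higher, beside 39.2% of all tested genes, with a median log2-fold change of 0.93. ACSF2 (1.90, edgeR quasi-likelihood adjusted p = 7.10e-12), ACSL3 (1.02, adjusted p = 7.62e-11) and ACSL1 (0.93, adjusted p = 4.02e-09) led the increases.

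Of 15 genes of sterol synthesis and uptake, 12 were higher and 2 lower, with a median log2-fold change of 0.70. MVD (1.44, edgeR quasi-likelihood adjusted p = 1.22e-10), LSS (1.27, adjusted p = 3.12e-11) and FDPS (1.14, adjusted p = 5.29e-10) led the increases, and PMVK was among the lower genes (-0.20, adjusted p = 0.0254). The call of PMVK was lost without hypoxia replicate 2 (edgeR quasi-likelihood adjusted p = 0.052), hypoxia replicate 3 (0.0721), normoxia replicate 1 (0.0605) or normoxia replicate 3 (0.0522). As a list not picked by hand, the genes that carry the GO term for fatty acid biosynthesis in the deposited annotation were also counted. Of 33 genes, 29 were tested, with 14 higher, 9 lower and a median log2-fold change of 0.24, and FASN, ACACA and ACLY belong to both lists. XBP1, a transcription factor of the unfolded protein response, was the largest decrease among those in no other list at -1.80 (edgeR quasi-likelihood adjusted p = 3.29e-12). Among those in no other list and with a mean log2 CPM of at least 1, FA2H, a fatty acid hydroxylase, was the largest increase. Its log2-fold change was 1.03 (edgeR quasi-likelihood adjusted p = 4.17e-06).

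**Figure D4:**
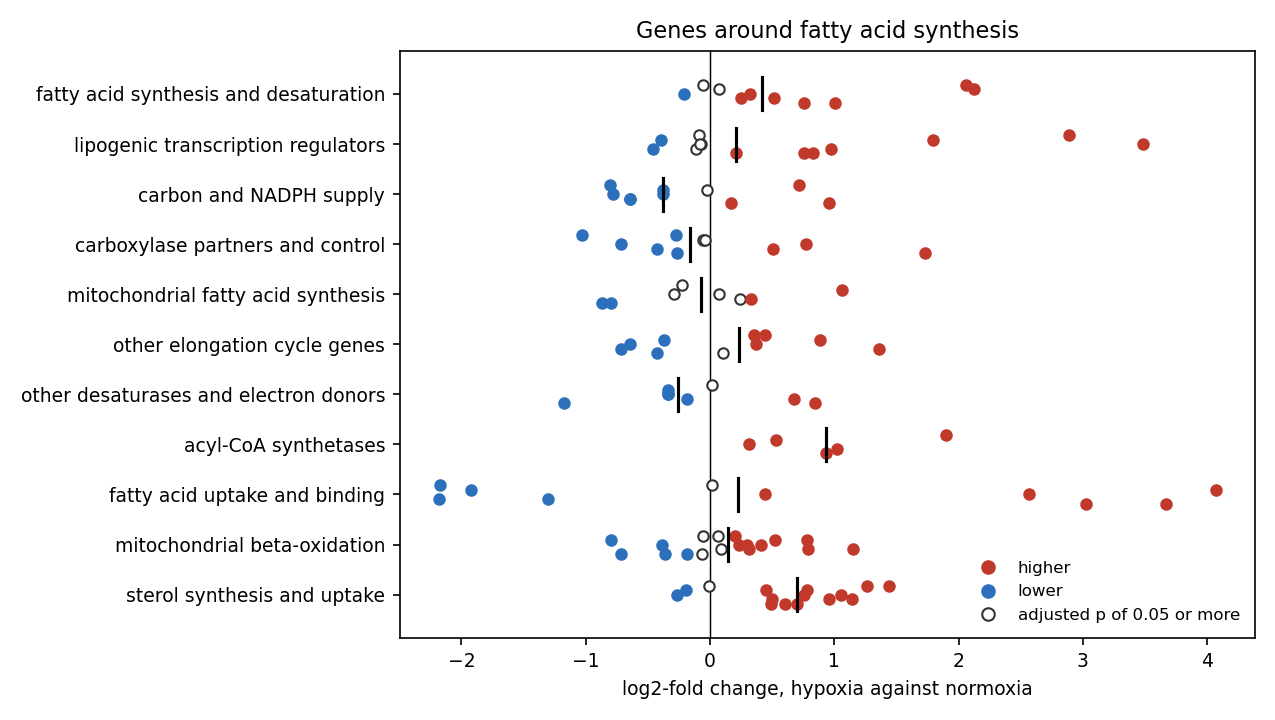
Log2-fold change of hypoxia against normoxia of each tested gene in 11 lists around fatty acid synthesis, with red for higher and blue for lower genes at an adjusted p under 0.05, open symbols for genes that did not pass and a black bar for the median of each list. All 5 tested genes of the acyl-CoA synthetase list lie to the right of 0, while the genes of carbon and NADPH supply lie on both sides.

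As a check of the labels, all 15 of 15 hypoxia response genes were higher, with VEGFA at 1202, 1317 and 1315 CPM under hypoxia and 180, 168 and 205 CPM under normoxia and CA9 at 262, 277 and 293 CPM against 32.2, 27.3 and 67.7 CPM. The epithelial identity was checked on 10 epithelial markers, of simple as well as squamous epithelium. The simple-epithelial keratins KRT8 (1383 and 1723 CPM in the mean under hypoxia and normoxia) and KRT18 (1154 and 1430 CPM) were the most abundant. The squamous keratin KRT5 had a mean of 111 CPM under hypoxia and 126 CPM under normoxia, and TP63 had 68.3 and 62.7 CPM, but KRT14, a defining keratin of basal squamous cells, had at most 1 count in any library. Of these markers, KRT17, CDH1 and DSG3 were higher and KRT6A, EPCAM, KRT8, KRT18 and KRT5 lower under hypoxia, and TP63 did not pass.

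Markers of other cell types were also read. Of 8 fibroblast markers, 2 passed the filter and 1, COL1A1, was higher. Their summed level was 22.1, 18.7 and 17.4 CPM under hypoxia and 4.03, 3.18 and 5.64 CPM under normoxia, nearly all from COL1A1, with COL3A1 at 3 or fewer counts in every library. Of 6 adipocyte markers, ADIPOQ, CIDEC and FABP4 are not listed in the table and LEP had 3 or fewer counts, while PLIN1, the most abundant, summed with the others to 1.05, 1.32 and 1.17 CPM under hypoxia against at most 0.068 CPM under normoxia. Of 6 endothelial markers, EMCN is not listed in the table, and the other 5 summed to 1.70, 1.32 and 1.60 CPM under hypoxia and 0.30, 0.31 and 0.74 CPM under normoxia, led by CDH5, the 1 marker tested, which was higher, and TEK had 3 or fewer counts. Of 8 immune markers, 6 are listed in the table, 2 were tested and 1, CD14, was higher at a log2-fold change of 2.45, PTPRC, CD3E, CD3D and LYZ had 3 or fewer counts, and the sum, mostly CD68 (833 to 1218 counts per library, log2-fold change -0.09, not passing the test), was 33.6 to 39.6 CPM under hypoxia and 32.96 to 35.9 CPM under normoxia. The part of these transcripts in the results was not tested. The summed level of the 10 synthesis genes was 6552 to 6902 CPM under hypoxia and 2837 to 3081 CPM under normoxia.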

How the data were processed

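RNA-seq libraries of SCC25 cells (6 in all, 3 per condition; SMARTER mRNA-Seq kit) were grouped by their labels. The authors deposited whole-number counts of reads per gene, without normalization, and FPKM of the same genes, which divide these counts by gene length and library total. The aligner, counting tool and strand setting are not given in the sources used here, and the submitters' processing notes name only the mouse builds GRCm38 and mm10, although the gene symbols and Entrez numbers are human. Coordinates are therefore those of RefSeq on GRCh38.p14.

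The depth was 29637189 to 37278703 counts per library. Tests of the counts used edgeR 4.0.16 under R 4.3.3 (glmQLFit and glmQLFTest, TMM, filterByExpr, condition as the only term, Benjamini-Hochberg adjustment over 14255 genes at 0.05). The SE is the log2-fold change divided by the square root of F. FPKM served for levels and ratios between genes, and exact permutation tests were two-sided. Replicate pairs differed by more than sampling noise (5.11 to 10.8 in chi-square per gene).

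Alternatives were DESeq2 size factors, the DESeq2 1.42.0 Wald test, no filter, a floor of 10 counts per library, a block on replicate number, leaving out each library, a further limit of 1 on the size of the log2-fold change, and limma 3.58.1 on log2(FPKM + 1) for genes averaging 1 FPKM or more, with a pseudocount of 0.1 or without the filter. On simulated hypoxia and normoxia counts with 200 of 13375 genes changed by 1 on the log2 scale, edgeR found 198 with 13 false calls and DESeq2 197 with 6, and limma found 190 of 190 with 7 false calls among 11243 genes of simulated FPKM. The simulation changed few genes, whereas 77.8% of all tested genes were called in the data. False calls under so broad a response were not simulated. The members and lists were chosen with earlier results of these data known. Named are all 10 members, their listed partners and, per list, up to 3 genes in each direction with the largest change among those with an adjusted p under 0.05 and a mean log2 CPM of at least 1. KRT5, KRT8, KRT14, TP63 and other markers were named as markers. Further genes of the lists, among them ELOVL3, ELOVL7, HSD17B12, PRKAG2, PRKAG3, PRKAA1, CYB5B, CYB5R1, CYB5R3, FABP3, FABP5, FABP6 and LPL, were named after their values were seen, to account for small counts. Some genes that this rule names are not reported here.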

Additional observations from a re-analysis of the deposited data

How the results depend on the processing

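The increase of FASN, ACACA, ACLY, ACSS2, SCD, SCD5 and FADS1 kept its direction and an adjusted p under 0.05 in every fit that was run on it, and 7 genes were higher in each fit that left out 1 library. With a floor of 10 counts per library, FADS2 was at -0.13, ELOVL5 at 0.15, ELOVL6 at 0.021 and SCAP at 0.0086. Of the 10 genes, 8 were higher and 0 lower with this floor. It left 2 higher genes of fatty acid uptake instead of 5 and 1 lower gene of sterol synthesis. This filter removes genes at low counts and moves all log2-fold changes up by a median of 0.08, so differences of that size are not resolved. By limma, FADS2 was at -0.14 (also without the filter on FPKM) or -0.16 with a pseudocount of 0.1, and 0 of the 10 genes were lower. The cause was not tested. Asking for log2-fold changes beyond 1 left 2840 higher and 1498 lower genes, with 3 and 0 of the 10 genes. The ratio of ACACB to ACACA went to 0.63 with 0.1 FPKM added. With 1 library left out, FADS2 lay between -0.27 and -0.15, the number of lower genes among the 10 between 0 and 1, and that of lower sterol genes between 1 and 2. In the other fits, beta-oxidation had 9 to 11 higher and 4 to 5 lower genes. The other desaturases and electron donors had 4 to 5 lower genes there, and the GO list 9 to 11.

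Libraries with the same replicate number did not deviate together (correlations of 0.018, -0.069 and 0.0012 for numbers 1 to 3), and not every library correlated best with its own number. With the replicate block, 5456 genes were higher and 5419 lower, FASN was at 0.76, and no call among the 10 genes changed.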

Other observations

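Of 15 genes of fatty acid uptake and binding, 10 were tested. The shares called in each direction were 50% higher and 40% lower, beside 39.2% and 38.5% of all tested genes, and single genes are given for their values. There were 5 higher (SLC27A1, SLC27A3, FABP3, FABP6 and LPL) and 4 lower genes (SLC27A2, SLC27A4, MFSD2A and FABP5). FABP3, FABP6 and LPL were rare, with a mean log2 CPM under 1 and at most 11 counts in any normoxia library. They passed the filter on low counts only through the hypoxia libraries, so a decrease could not have been called. With a floor of 10 counts per library, 2 genes of the list were higher and 4 lower. The share of 50% higher thus depends on FABP3, FABP6 and LPL. SLC27A1, a fatty acid transporter, had 13.3, 11.1 and 12.3 CPM under hypoxia and 1.21, 0.87 and 2.43 CPM under normoxia (log2-fold change 3.03, SE 0.23, edgeR quasi-likelihood adjusted p = 1.74e-09). Its relative SLC27A4 had 12.9, 10.7 and 10.3 CPM under hypoxia and 47.6, 43.5 and 36.8 CPM under normoxia (log2-fold change -1.92, SE 0.10, edgeR quasi-likelihood adjusted p = 2.41e-11), and SLC27A2 was lower at -2.18 (adjusted p = 4.88e-11). The transporter MFSD2A, which carries lysophospholipids with polyunsaturated chains, was lower at -2.18 (edgeR quasi-likelihood adjusted p = 1.53e-08). The summed CPM of the list was 66.6 to 75.9 under hypoxia and 115 to 133 under normoxia.

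Of 19 genes of mitochondrial beta-oxidation, 18 were tested, with 9 higher, 5 lower and a median log2-fold change of 0.15. As shares these are 50% higher and 27.8% lower, beside 39.2% and 38.5% of all tested genes. Single genes are given for their values. CPT1A, which commits long chains to oxidation, had 154, 149 and 147 CPM under hypoxia and 243, 256 and 238 CPM under normoxia (log2-fold change -0.71, SE 0.052, edgeR quasi-likelihood adjusted p = 9.60e-10). The carnitine carrier SLC25A20 was lower at -0.79 (edgeR quasi-likelihood adjusted p = 7.00e-07) and CPT2 at -0.38 (adjusted p = 6.34e-05). CPT1C, a brain-type relative of CPT1A (1.15, edgeR quasi-likelihood adjusted p = 0.000878), ACADS (0.79, adjusted p = 0.000201) and DECR1 (0.78, adjusted p = 6.63e-08) had the largest increases.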
